A study of Mus musculus with 2 samples.

Results

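Chemokine ligands and chemokine receptors were examined in open chromatin of mouse hematopoietic stem cells. The group was chosen by name: protein-coding genes whose symbol is Ccl, Cxcl, Ccr or Cxcr with a number, together with Cx3cl1, Cx3cr1, Xcl1, Xcr1 and the atypical receptors Ackr1, Ackr2, Ackr3 and Ackr4. It held 60 of 21853 protein-coding genes, of which 37 were ligands, 19 were receptors and 4 were atypical receptors. Accessibility had been measured by ATAC-seq, in which the Tn5 transposase inserts adapters into DNA that is not tightly packed, and a peak is a stretch where insertions pile up. The series holds 1 group of 2 libraries, each from 50000 primary cells. The mice were adult C57BL/6J males, 5 to 6 weeks old, with no treatment named, and there was no other cell type for comparison. The labels call the libraries biological replicates and list a biosample for each but the same donor, so the spread between them may not be that between animals. How the cells were purified is not given in the sources used here.

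Chemokines are small secreted proteins that bind G protein-coupled receptors and direct the migration of leukocytes. In bone marrow, Cxcl12 made by stromal cells binds Cxcr4 on hematopoietic stem cells and holds them in their niche, and drugs that block Cxcr4 release stem cells into the blood. Atypical receptors bind chemokines without the usual G protein signal and scavenge or transport them. Many members arose by gene duplication and lie side by side, so that a single peak can be near several of them.

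Each replicate has a thresholded peak list, kept by the irreproducible discovery rate, which asks whether a peak ranks alike in subsamples of the library, and a longer pseudoreplicated list, called less strict here. The thresholded lists held 25141 intervals in replicate 1 and 24495 in replicate 2, and the less strict ones 62918 and 64843. Every peak carries a signal value given by the authors' peak caller, whose exact normalization is not given in the sources used here, so signal is used to rank peaks within a list, with its percentile there. Of 10 stem cell marker genes, 4 (Kit, Hlf, Meis1 and Cd34) had a promoter peak in both thresholded lists and 9 in both less strict lists, where the shares over all protein-coding genes were 41.3% and 58.0%. The thresholded count of stem cell genes was thus near that of all genes. The thresholded count was 1 of 5 B cell genes (Pax5), 0 of 6 T and NK cell genes, 0 of 7 monocyte and granulocyte genes, 0 of 6 erythroid genes, 4 of 4 megakaryocyte genes and 3 of 6 stromal and endothelial genes. In both less strict lists the count was 1 of 5 B cell genes and 2 of 6 T and NK cell genes. There it was also 4 of 7 monocyte and granulocyte genes and 2 of 6 erythroid genes. For megakaryocyte genes it was 4 of 4, and for stromal and endothelial genes 4 of 6. The part of other cells in the results was not tested.

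The DNA at the members on which the results turn is shown before their values, from the RefSeq sequence of the mm10 build. Capitals mark matches, on either strand, to the consensus motifs named with each set. These are the 150 bases upstream of the most 5′ TSS (transcription start site) of Cxcr4 (chr1:128592294-128592443, minus strand), Ackr3 (chr1:90203830-90203979, plus strand) and Cxcr3 (chrX:101734270-101734419, minus strand), the 3 receptors with a promoter peak in both thresholded lists, and of Cxcl12 (chr6:117168385-117168534, plus strand), the ligand of Cxcr4, which had none. The Cxcr4 bases hold matches to the GC box, NRF1 and TATA box, the Ackr3 bases to RUNX, GC box, C/EBP and TATA box, the Cxcr3 bases to ETS and the Cxcl12 bases to the GC box.
Cxcr4 upstream: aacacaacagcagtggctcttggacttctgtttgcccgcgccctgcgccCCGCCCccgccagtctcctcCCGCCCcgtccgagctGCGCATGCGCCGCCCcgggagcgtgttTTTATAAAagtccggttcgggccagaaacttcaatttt
Ackr3 upstream: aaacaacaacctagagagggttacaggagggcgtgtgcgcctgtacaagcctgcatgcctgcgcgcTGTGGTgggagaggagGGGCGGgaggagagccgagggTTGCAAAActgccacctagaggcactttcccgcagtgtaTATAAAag
Cxcr3 upstream: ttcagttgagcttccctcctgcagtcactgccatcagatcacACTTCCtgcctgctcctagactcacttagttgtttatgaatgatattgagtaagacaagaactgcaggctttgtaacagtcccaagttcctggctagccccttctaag
Cxcl12 upstream: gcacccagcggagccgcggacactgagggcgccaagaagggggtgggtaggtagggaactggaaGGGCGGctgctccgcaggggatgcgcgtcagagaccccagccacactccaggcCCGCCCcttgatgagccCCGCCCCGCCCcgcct

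The windows of 100 bases either side of a replicate 1 summit show the DNA of 3 further open sites of receptor genes. They are the upstream part of the Cxcr4 promoter peak (chr1:128592545-128592745, minus strand), the distal peak upstream of Cxcr4 (chr1:128614867-128615067, plus strand, intergenic) and the distal peak in an intron of Cx3cr1 (chr9:120054893-120055093, plus strand). Capitals mark HIF in the Cxcr4 promoter window, RUNX and CCAAT box in the Cxcr4 distal window, and RUNX, ETS and NF-kB in the Cx3cr1 window.
Cxcr4 upstream summit: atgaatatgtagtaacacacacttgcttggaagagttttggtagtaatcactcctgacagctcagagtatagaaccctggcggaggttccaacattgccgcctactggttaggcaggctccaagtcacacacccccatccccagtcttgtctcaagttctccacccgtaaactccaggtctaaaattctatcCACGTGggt
Cxcr4 distal: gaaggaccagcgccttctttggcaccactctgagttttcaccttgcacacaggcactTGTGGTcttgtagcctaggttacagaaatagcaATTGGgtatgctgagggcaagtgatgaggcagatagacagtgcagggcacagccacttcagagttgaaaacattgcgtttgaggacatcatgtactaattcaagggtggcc
Cx3cr1 distal: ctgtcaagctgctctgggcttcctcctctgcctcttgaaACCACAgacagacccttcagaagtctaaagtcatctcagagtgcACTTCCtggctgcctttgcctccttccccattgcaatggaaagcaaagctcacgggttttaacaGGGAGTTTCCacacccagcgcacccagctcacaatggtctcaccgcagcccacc

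For the ligands, the 150 bases upstream of Cxcl10 (chr5:92348890-92349039, minus strand) and Ccl2 (chr11:82035421-82035570, plus strand) are shown because their promoter peaks were among the strongest of those that passed the threshold in a single library. The distal summit windows near Ccl3 and Ccl4 (chr11:83640229-83640429, plus strand) and near Cxcl5 (chr5:90742064-90742264, plus strand) are shown because they were the strongest shared distal peaks of their gene clusters. Capitals mark NF-kB (overlapped by ETS), AP-1, CCAAT box and GATA at Cxcl10 and ETS at Ccl2. In the distal windows they mark PU.1 (which contains the ETS motif) and E-box in both, with ETS alone and C/EBP near Ccl3 and RUNX and GATA near Cxcl5.
Cxcl10 upstream: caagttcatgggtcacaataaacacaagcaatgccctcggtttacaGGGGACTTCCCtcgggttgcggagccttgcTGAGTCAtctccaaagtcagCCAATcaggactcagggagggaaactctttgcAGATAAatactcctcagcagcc
Ccl2 upstream: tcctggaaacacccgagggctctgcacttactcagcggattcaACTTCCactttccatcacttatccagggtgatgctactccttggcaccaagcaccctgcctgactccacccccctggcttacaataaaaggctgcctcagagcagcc
Ccl3 distal: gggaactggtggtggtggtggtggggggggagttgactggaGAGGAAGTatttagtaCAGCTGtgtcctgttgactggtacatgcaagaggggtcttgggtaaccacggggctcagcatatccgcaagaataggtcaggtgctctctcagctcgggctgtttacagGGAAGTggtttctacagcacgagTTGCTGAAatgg
Cxcl5 distal: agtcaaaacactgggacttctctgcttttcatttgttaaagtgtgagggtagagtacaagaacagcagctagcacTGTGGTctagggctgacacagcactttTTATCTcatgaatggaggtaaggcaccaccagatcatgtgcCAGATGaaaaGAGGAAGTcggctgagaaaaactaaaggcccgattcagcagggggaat

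A gene was called open at its promoter when each thresholded list had a peak overlapping 1 kb either side of any of its TSSs. By this rule 5 of 60 members (8.33%) were open, beside 41.3% of all protein-coding genes: the receptors Cxcr4 and Cxcr3, the atypical receptor Ackr3, and the ligands Ccl25 and Ccl4. The count was 2 of 37 ligands (5.41%) and 3 of 23 receptors with the atypical ones included (13.0%). Another 5 members, all ligands, had a promoter peak in a single thresholded list, beside 7.47% of all genes: Ccl2 in replicate 1, and Ccl3, Ccl24, Cxcl10 and Cx3cl1 in replicate 2. In the less strict lists 17 of 60 members (28.3%) had a promoter peak in both replicates, beside 58.0% of all genes, and the additions to the 10 already named were Ccr1, Ccr7, Cx3cr1, Cxcr2, Cxcl1, Cxcl2 and Cxcl9. Ccr9, Cxcl14 and Cxcl3 had one in a single less strict list, and 40 members had none in any of the 4 lists. The 84 other protein-coding genes in the windows around the members were open in 38 cases (45.2%).

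**Figure D1:**
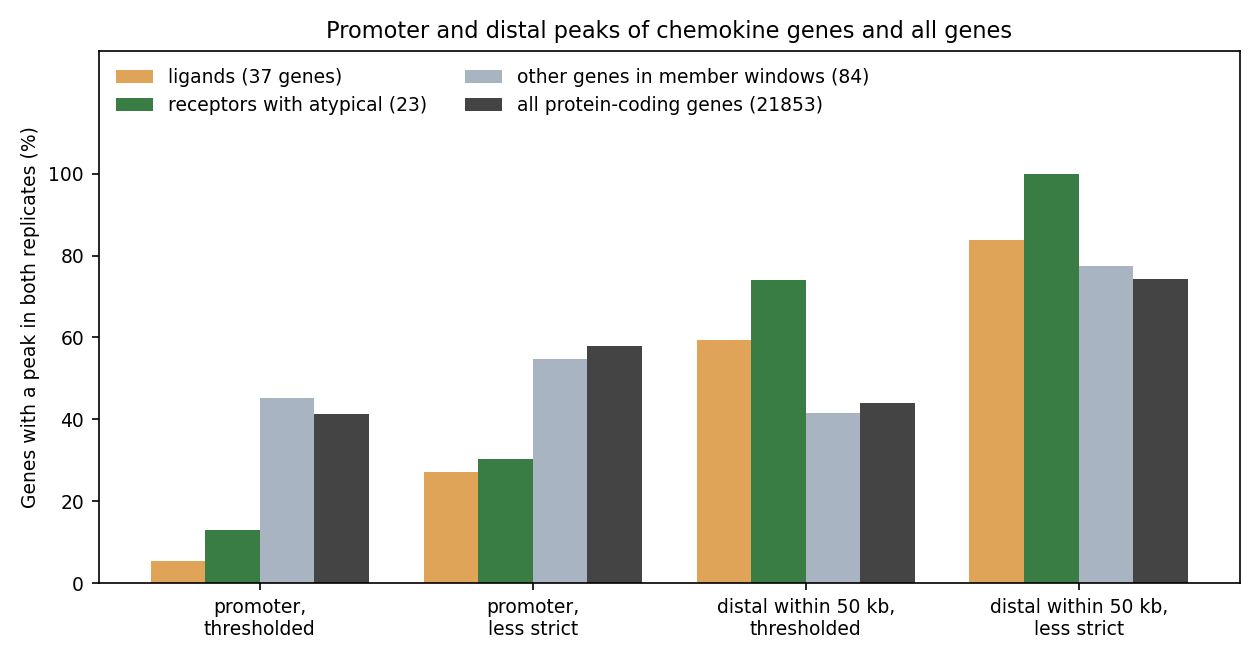
Share of genes (y axis, %) with a promoter peak (left pair of groups) or at least 1 distal peak within 50 kb (right pair) in both replicates, by list. Ligands and receptors lie below the dark bars of all protein-coding genes for promoters (5.41% and 13.0% against 41.3%) and above them for distal peaks (59.5% and 73.9% against 43.9%).

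Among the receptors, Cxcr4, the receptor for Cxcl12 on stem cells, was open in both replicates, at a low signal. Its strongest promoter peak had a signal of 4.94 in replicate 1 and 5.53 in replicate 2, at percentiles 2.20 and 1.87 of the thresholded lists. Of the 9030 genes with an open promoter, 27 had a lower promoter signal than Cxcr4 in replicate 1 and 60 in replicate 2, where the medians were 10.3 and 10.9. In a bulk sample a low signal from few cells and a low signal in every cell cannot be told apart.

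The promoter of Cxcr4 held several summits, which were ranked differently by the replicates. In replicate 1 a single peak of 753 bp held 3 summits, 352 bp upstream of the TSS (signal 4.94), 72 bp inside the gene (signal 4.68) and 99 bp upstream (signal 4.20). In replicate 2 the thresholded peak of 393 bp had its summit 26 bp inside the gene, and the upstream part was a separate peak in the less strict list, with its summit 360 bp upstream and a signal of 4.56. The upstream summits of the replicates thus nearly coincided, although the upstream part passed the threshold in replicate 1 alone. The less strict lists also had a peak in the intron of Cxcr4 in both replicates, with the strongest summits 1351 and 1067 bp inside the gene in replicate 1 (both with a signal of 3.67) and 1107 bp inside it in replicate 2 (signal 3.43).

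Cxcr4 also had distal peaks, and those 22.7 and 30.9 kb upstream had higher signals than its promoter in both replicates. The peak 22.7 kb upstream, in intergenic DNA at chr1:128614579-128615741, was 1163 bp wide in replicate 1 and 1161 bp wide in replicate 2, with signals of 8.80 and 10.3 (percentiles 53.5 and 59.1). The peak 30.9 kb upstream had a signal of 8.27 in replicate 1, where it passed the threshold, and 7.65 in replicate 2, where it was in the less strict list. A peak 15.9 kb upstream stood in both less strict lists, with signals of 4.43 and 3.69, below those of the promoter. Cxcr4 was the nearest protein-coding gene to each of these peaks. The non-member genes nearest to Cxcr4 in promoter signal percentile, among 2785 open genes with the same count of 1 shared distal peak, were Ube2m, Irgm1, Gpaa1, Icam4 and Crlf2, with mean percentiles over the 2 libraries from 1.87 to 2.54 beside 2.03 for Cxcr4.

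**Figure D2:**
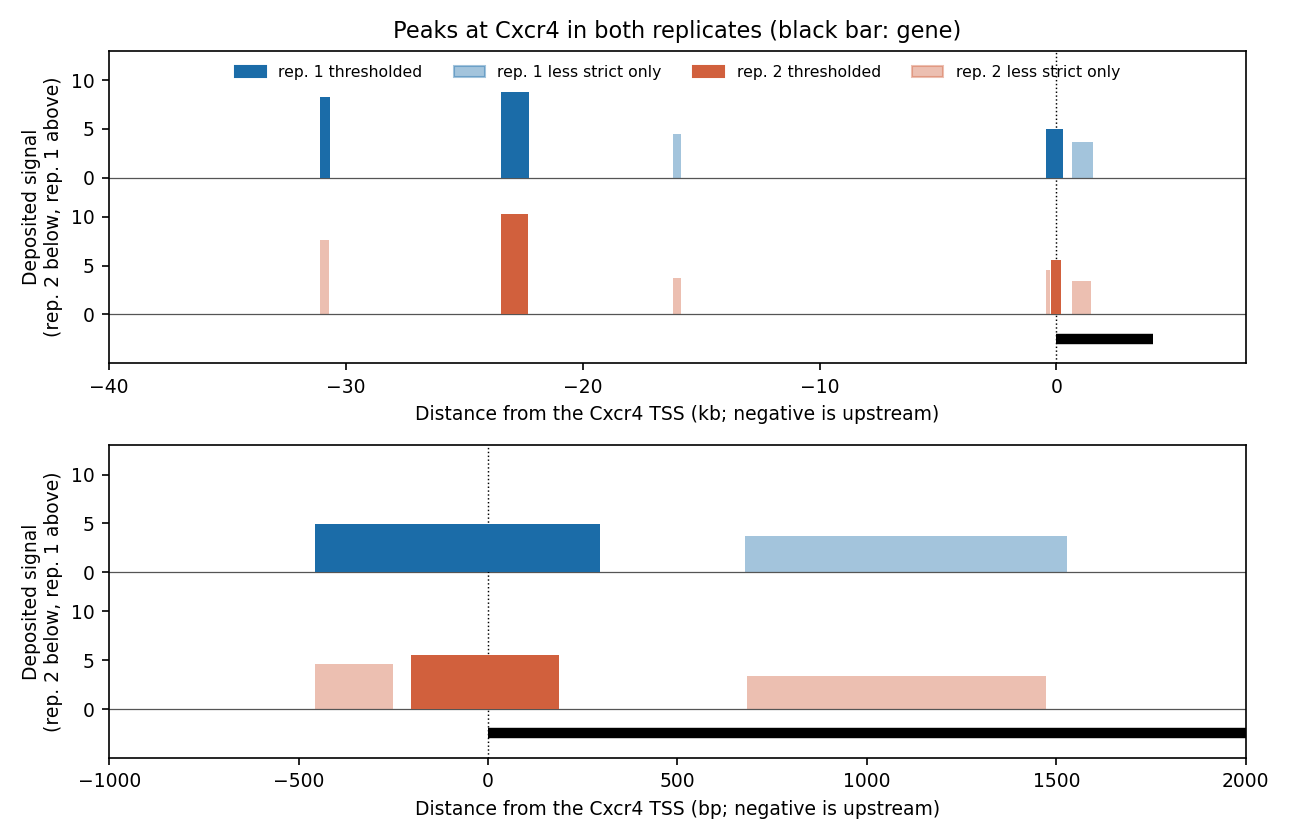
Peaks around Cxcr4 in replicate 1 (blue) and replicate 2 (orange), by distance from the TSS (x axis; kb above, bp below), with bar height giving the deposited signal and bar width the peak; pale bars are peaks of the less strict list alone. The peak 22.7 kb upstream reaches 8.80 and 10.3, above the promoter peaks at 4.94 and 5.53.

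Ackr3, the atypical receptor that also binds Cxcl12 and removes it, had the strongest promoter peak of any receptor gene in the group. Its signal was 8.53 in replicate 1 and 10.01 in replicate 2 (percentiles 49.4 and 55.3), with summits 6 and 5 bp upstream of the TSS. Cxcr3, the receptor for Cxcl9 and Cxcl10 on T and NK cells, had signals of 7.48 and 6.65 (percentiles 31.2 and 7.23), and its summits lay 146 and 152 bp inside the gene, in an exon. Neither gene had a shared thresholded distal peak within 50 kb. The less strict lists added 4 receptors, which were weaker than Ackr3. Cx3cr1, the fractalkine receptor of monocytes and microglia, had signals of 6.57 and 8.12 at a downstream TSS, with summits 48 and 45 bp from it. Ccr1, a receptor for several inflammatory C-C ligands, had 4.31 and 5.68, Ccr7, which guides cells to lymph nodes, had 3.78 and 4.84, and Cxcr2, the neutrophil receptor for Cxcl1 and Cxcl2, had 4.47 and 3.12. Ccr9, which guides T cells to thymus and gut, had a peak of signal 4.54 in replicate 1 that also covered a promoter of Slc6a20a, and none in replicate 2. Ccr2, the monocyte receptor for Ccl2, and 11 other receptors, together with Ackr1, Ackr2 and Ackr4, had no promoter peak in any list.

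Among the ligands, Ccl25, a chemokine of thymus and gut epithelium, had the strongest promoter peak, with signals of 12.9 and 13.0 (percentiles 90.5 and 85.6). That peak also covered a promoter of the neighbouring gene Elavl1, which encodes an RNA-binding protein, so it cannot be assigned to Ccl25. Ccl4, an inflammatory chemokine, was called in both replicates from peaks that did not overlap: its summit lay 259 bp upstream of the TSS in replicate 1 (signal 5.31) and 1158 bp inside the gene in replicate 2 (signal 5.59). The upstream peak of Ccl4 was in the less strict list of replicate 2, with a signal of 4.19 and its summit 249 bp upstream. Neither ligand thus had a promoter peak of its own at the same place in both thresholded lists.

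The 5 ligands called in a single thresholded list had a less strict peak in the other library. Ccl2, which recruits monocytes through Ccr2, had signals of 9.83 in replicate 1 and 9.49 in replicate 2, with summits 64 and 54 bp upstream of the TSS. Of the 13229 less strict peaks of replicate 2 that were at least as strong as that of Ccl2, 451 (3.41%) had no thresholded peak over them. Cx3cl1, the membrane-bound ligand of Cx3cr1, had 7.16 in replicate 1 and 9.38 in replicate 2. Cxcl10, an interferon-induced ligand of Cxcr3, had 6.91 and 9.18, with summits 84 and 73 bp upstream. Ccl24, an eosinophil attractant, had 4.30 and 7.72, and Ccl3, a neighbour of Ccl4, had 5.01 and 5.57. By percentile of the less strict lists, Cx3cl1 (67.55 and 79.04), Cxcl10 (65.44 and 77.43) and Ccl24 (25.36 and 64.98) ranked higher in replicate 2. Ccl2 (86.62 and 79.6) and Ccl3 (39.1 and 36.8) ranked higher in replicate 1. Of the lists per library, the neutrophil attractants Cxcl1 (5.29 and 5.30) and Cxcl2 (4.93 and 5.78) were in both less strict ones alone. So was the interferon-induced Cxcl9 (5.26 and 5.68). The Cxcl2 values come from different peaks, with summits 68 bp inside the gene in replicate 1 and 809 bp upstream in replicate 2. The replicate 2 peak with its summit 68 bp inside the gene had a signal of 4.57.

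**Figure D3:**
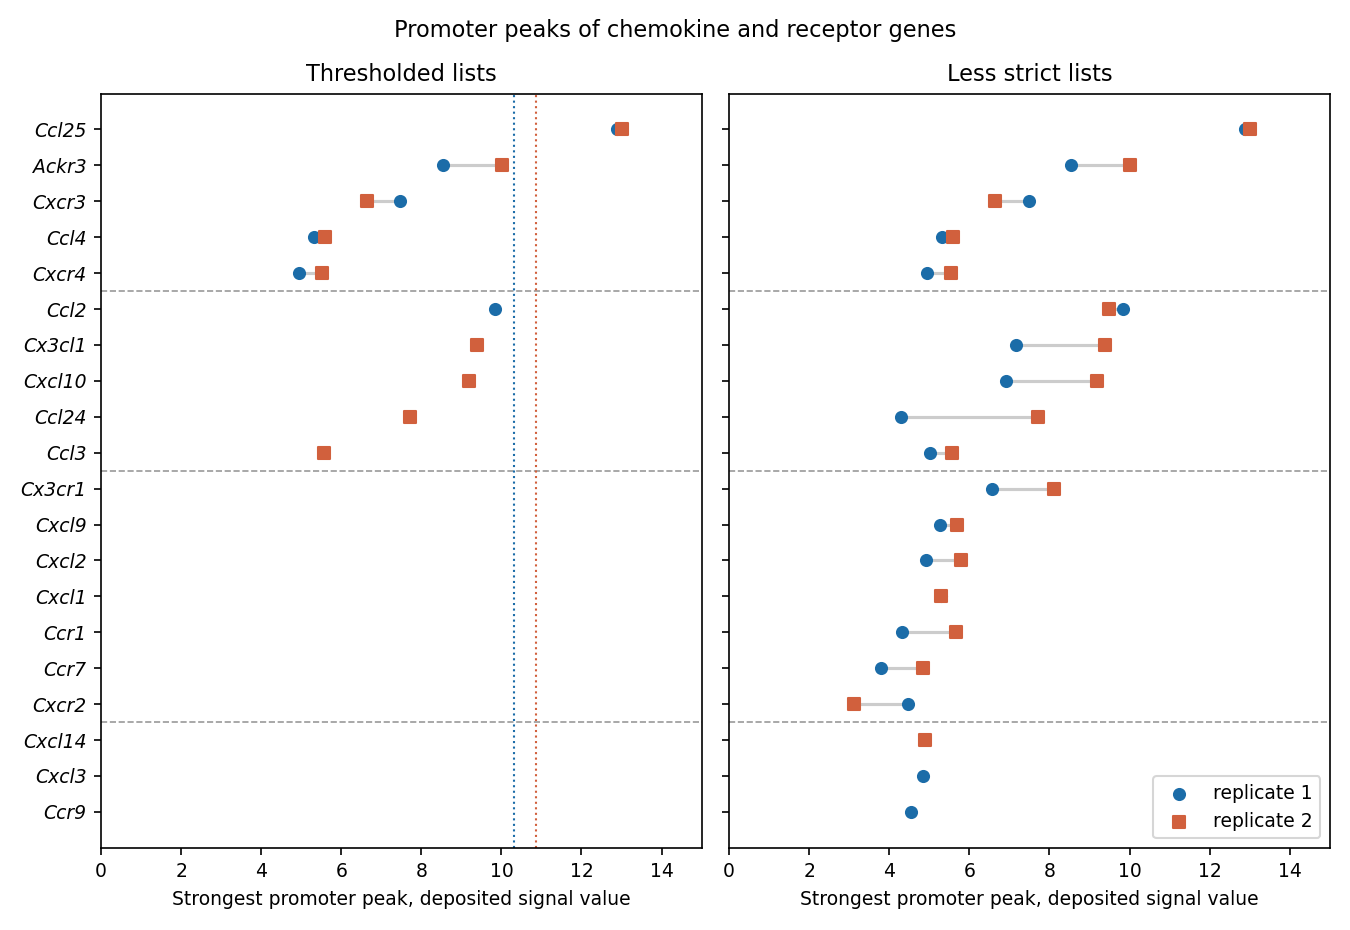
Signal of the strongest promoter peak (x axis, deposited signal value) of the 20 members with a promoter peak in any list, in replicate 1 (circles) and replicate 2 (squares); grey lines join replicates, dashed lines separate the classes of calls, dotted lines mark the medians of all open promoters (10.3 and 10.9), and a circle at Cxcl1 is hidden by its square. Ccl25 alone lies to the right of both medians, and the joined values of Ccl4 and of Cxcl2 come from different peaks.

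Cxcl12 itself, made by stromal cells, had no promoter peak in any list. It had a shared thresholded peak 1.54 kb upstream of its TSS, at chr6:117166890-117167146, with signals of 8.54 and 11.1 and a match to the CTCF motif at its summit window. Cxcl16, a transmembrane ligand of Cxcr6, had no promoter peak and no shared thresholded distal peak, and the nearest shared thresholded peak lay 7.77 kb away. With promoters of 2 kb either side of a TSS, Cxcl12 and the neutrophil receptor gene Cxcr1, which has a peak 1.54 kb upstream (signals 6.96 and 7.90), would join the open members, giving 7.

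In contrast to their promoters, the surroundings of the members held many distal peaks. A distal peak had its summit over 1 kb from every protein-coding TSS, stood in both thresholded lists and lay within 50 kb of a TSS of the gene. At least 1 was found near 39 of 60 members (65.0%), beside 43.9% of all genes, and in the less strict lists near 54 of 60 (90.0%), beside 74.2%. The count was 17 of 23 receptors (73.9%) and 22 of 37 ligands (59.5%), and 35 of the 84 neighbouring genes (41.7%). Members averaged 0.983 such peaks (SD 0.911, n = 60 genes), and all genes averaged 0.717 (SD 1.04, n = 21853 genes). Among genes whose promoter was not open, 36 of 55 members (65.5%) had a distal peak, beside 37.9% of all such genes. The difference shrank with other windows: within 20 kb the share was 18 of 60 members beside 23.4% of all genes, and within 100 kb it was 42 of 60 beside 62.5%.

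The 39 members with a distal peak rested on 39 distinct peaks, since neighbouring members share them. A member was the nearest protein-coding gene for 24 of these peaks, and 15 lay within 50 kb of more than 1 member. The distal peaks had a median signal of 8.73 in replicate 1 and 9.93 in replicate 2 (percentiles 52.6 and 54.4), and the median for all 11202 shared distal peaks was 8.71 in replicate 1. By location 26 were intergenic (66.7%, beside 51.8% of all shared distal peaks), 11 were in introns (28.2%, beside 43.3%) and 2 in exons. Of the 39 summits, 7 lay within 1 kb of the start of some annotated transcript that was not used here for promoters, in GENCODE or RefSeq.

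Some of these starts belonged to members. The strongest distal peak of the group, at chr13:119631749-119632151 with signals of 16.2 and 15.2 (percentiles 98.7 and 95.3), lay 8.09 kb inside Ccl28, a ligand of mucosal epithelia, and 148 bp from the start of a RefSeq Ccl28 mRNA. Its window of 100 bases either side of the summit had a GC content of 68.7% and held a pair of matches each to the CRE motif and to the NF-kB motif. A peak 7.93 kb upstream of the GENCODE start of Ccr1l1, a receptor-like neighbour of Ccr1, had signals of 9.09 and 10.3 and lay 378 bp from a RefSeq start of the same gene. With the starts of RefSeq mRNAs in place of those of GENCODE, 7 of 60 members were open, Ccl28 and Ccr1l1 being the additions, beside 43.0% of 20503 genes with such a start.

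By position the members formed 30 loci, when genes less than 500 kb apart were joined: 10 clusters with 40 members and 20 single genes. The receptor cluster on chromosome 9 is the largest by members, with 8, among them Ccr9, Cxcr6, Xcr1, Ccr1, Ccr1l1, Ccr3 and Ccr2. None of the 8 promoters was open, and Ccr1 was the member with a promoter peak in both less strict lists. Its window of 569 kb held 7 shared thresholded peaks, or 1.23 per 100 kb beside 0.724 over the genome, stretches without genes included. Other loci of the group ran from 0 to 4.43 per 100 kb. In the chromosome 9 window 5 of the 7 peaks were distal. Of these, a peak in an intron of Ccr2, 7.14 kb from its TSS, had signals of 7.38 and 10.2 (percentiles 29.7 and 58.6). The less strict lists gave 23 shared distal peaks in this cluster.

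**Figure D4:**
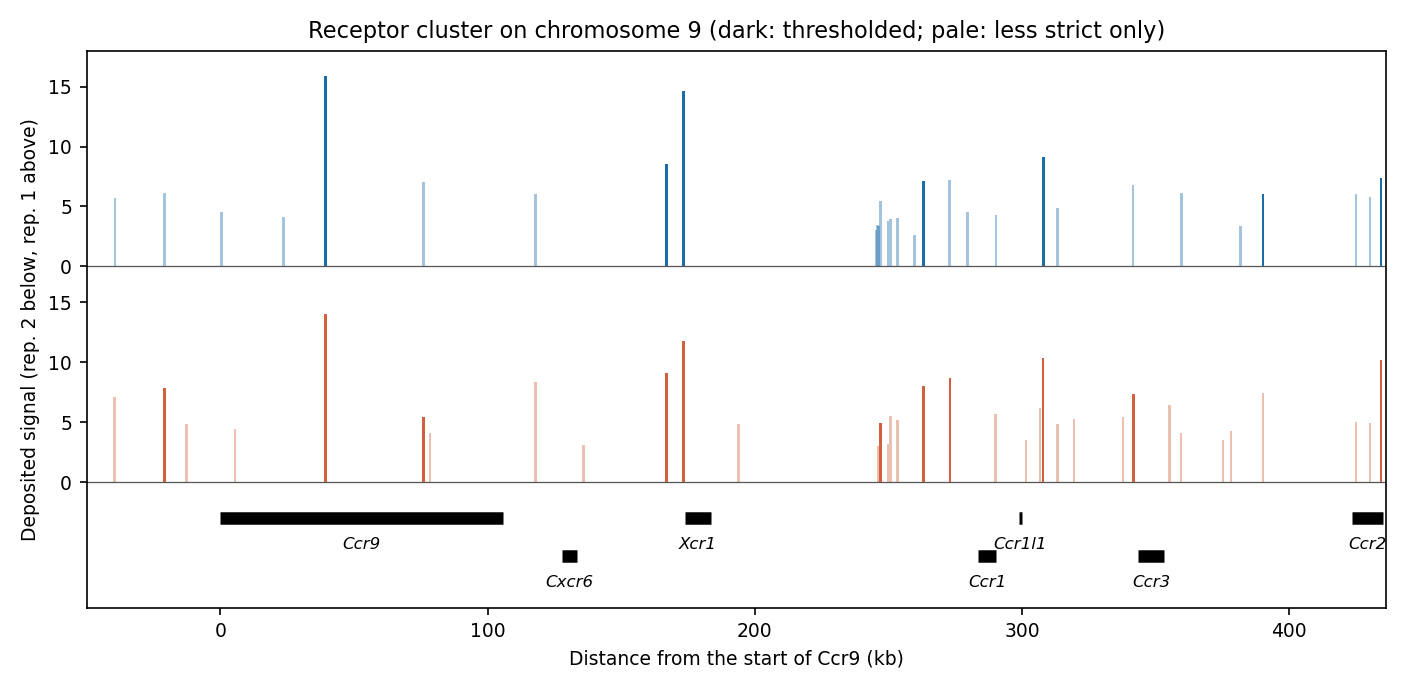
Peaks across the receptor cluster of chromosome 9, from Ccr9 to Ccr2, in replicate 1 (blue, above) and replicate 2 (orange, below), by distance from the start of Ccr9 (x axis, kb), with height giving the deposited signal; pale bars are in the less strict list alone and black bars are genes. The dark bars over Ccr2 reach 7.38 and 10.2, and the tallest bars, near Ccr9 and Xcr1, lie at promoters of Lztfl1 and Fyco1.

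The clusters of ligands differed from each other. On chromosome 11 the cluster of Ccl2, Ccl7, Ccl11, Ccl12, Ccl8 and Ccl1, which bind receptors such as Ccr2 and Ccr3, held 0 shared thresholded peaks in a window of 370 kb, and its members lay 188 to 332 kb from the nearest one. The less strict lists held 10 there. On the same chromosome the cluster of Ccl5, Ccl9, Ccl6, Ccl3 and Ccl4 held 3 shared thresholded peaks, all distal. The strongest, 9.03 kb downstream of the Ccl3 TSS at chr11:83640073-83640756, had signals of 11.6 and 11.4. Its nearest protein-coding gene was Rpl9-ps1, 5292 bp away. The other two, 9.21 and 6.17 kb downstream of the TSS of Ccl9, a ligand of Ccr1, had 8.02 and 7.74, and 6.70 and 7.83. On chromosome 5 the neutrophil attractants Cxcl5, Cxcl3, Cxcl15, Cxcl1 and Cxcl2 had 2 distal peaks. The one 17.2 kb upstream of Cxcl5 was among the stronger ones of the group, with 13.9 and 14.6 (percentiles 94.5 and 93.4), and the one 9.28 kb upstream of Cxcl1 had 8.20 and 9.49. Cxcl9 and Cxcl10 had 3 distal peaks around them, none with a member as its nearest gene.

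On chromosome 4 the cluster of Ccl27a, Ccl21b, Ccl27b, Ccl19 and Ccl21a, which includes the lymph node ligands of Ccr7, had no distal peak in both thresholded lists and 0.453 shared peaks per 100 kb. This stretch is duplicated in the assembly. Of the 31-base words in the promoters, 100% of those of Ccl21b and Ccl27b occurred more than once in the genome, as did 83.7% for Ccl21a, 81.3% for Ccl19 and 68.6% for Ccl27a, where the median over 60 members was 1.30%. Reads from such sequence may not be placed uniquely, and the mapping filter is not given in the sources used here, so the part of repeated sequence in the missing peaks of these 5 genes was not tested. Ccl12, Ccl8, Ccl21a, Ccl21b, Ccl27b and Ccl19 were the 6 members with no promoter peak in any list and no shared distal peak even in the less strict lists. Of all summits of the members' distal peaks, the one near Cxcl1 was the only one on a repeated 31-base word, with 2 copies.

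Xcl1, a ligand made by T and NK cells, had 4 distal peaks in both thresholded lists, the most of any member, and was the nearest protein-coding gene to each. They lay 36.6 kb downstream and 18.2, 24.7 and 30.7 kb upstream of its TSS, with replicate 1 signals of 10.3, 7.59, 10.8 and 10.1, and 2 of them lay within 1 kb of the starts of non-coding transcripts. Cx3cr1 had a peak in its own intron, 13.3 kb from the nearest of its TSSs, with signals of 10.7 and 9.79. Cxcr5, the follicle receptor of B cells, had 2 peaks, the first in an intron of the gene and the other 17.7 kb upstream, with replicate 1 signals of 9.39 and 8.01. The summit of the upstream one lay 42 bp from the GENCODE start of the non-coding transcript Gm47230. Ccr7 had a peak 27.7 kb upstream, with 8.73 and 10.3, and Ccr6, a receptor of Th17 and B cells, had 2, with replicate 1 signals of 7.95 and 9.88. Strong peaks near Ccl26 (14.1 and 13.6), Ccl20 (12.5 and 12.9) and Cxcr1 (12.4 and 14.1) were nearer to another gene, Hip1, Krtap28-13 and Arpc2 respectively.

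Promoters of the members were poor in CpG dinucleotides, which mark most promoters with broad activity. The median ratio of observed to expected CpG, 1 kb either side of the most 5′ TSS, was 0.211 in 60 members and 0.478 in all genes. When all genes were ranked and split into 3 equal parts by this ratio, 41 members fell in the lowest part, 14 in the middle and 5 in the highest. Of all genes 9.25% were open in the lowest part, 49.3% in the middle and 65.4% in the highest. Among members the open counts were 2 of 41 (Cxcr3 and Ccl4), 1 of 14 (Ackr3) and 2 of 5 (Cxcr4 and Ccl25). As shares, 4.88% of members were open in the lowest part and 7.14% in the middle part, both below the values of all genes there. In the less strict lists the share in the lowest part was 22.0% of members and 17.5% of all genes, and in the middle part 42.9% of members and 69.6% of all genes. The CpG-rich members without an open promoter were Cxcl12 (ratio 0.730), Ccr9 (0.745) and Cxcl14 (0.637).

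**Figure D5:**
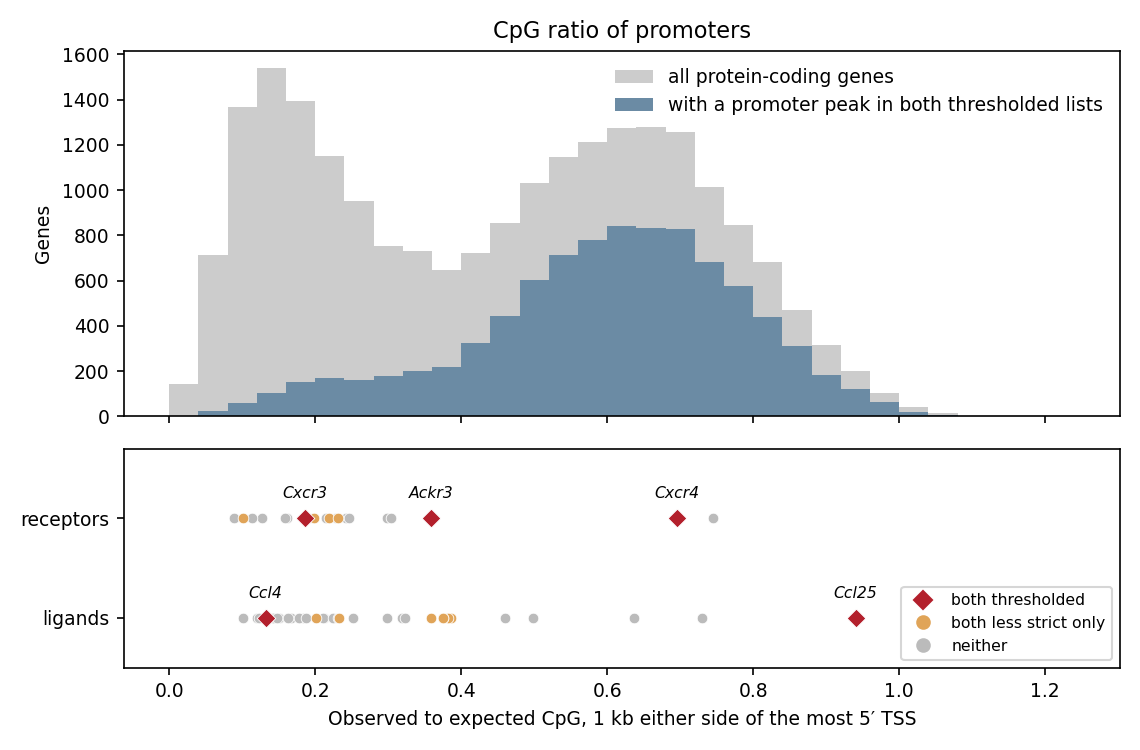
Ratio of observed to expected CpG (x axis) in promoters of all protein-coding genes (upper panel, y axis number of genes, with open ones in blue) and of ligands and receptors (lower panel, 1 point a gene). Most members sit in the left mode near their median of 0.211, and of the open ones Cxcr4 (0.696) and Ccl25 (0.940) sit in the right mode.

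Consensus motifs were searched on both strands, with the letters given here. The motif of ETS factors was GGAAGT, and that of the family member PU.1 was GAGGAAGT, which contains the former. RUNX factors were represented by TGTGGT, and blood-forming GATA factors were represented by AGATAA. The E-box was searched as either CAGCTG or CAGATG. The AP-1 motif was searched as TGANTCA, the cyclic AMP response element (CRE) as TGACGTCA, and the motif of C/EBP factors as TTGCNNAA. Of promoter elements, the GC box was searched as GGGCGG, the CCAAT box by its name, the TATA box by the letters TATAAA, and the hypoxia factor HIF by the letters ACGTG. IRF, NF-kB, NRF1 and CTCF are given by name. In the 39 distal windows, 100 bases either side of the summit, ETS matched 14 (35.9%, beside 38.4% of all 11202 shared distal windows), RUNX 12 (30.8%, beside 32.6%), E-box 16 (41.0%, beside 32.8%) and PU.1 6 (15.4%, beside 11.8%). GATA matched 6 (15.4%, beside 8.76%) and CTCF 5 (12.8%, beside 6.28%). In the 150 bases upstream of the most 5′ TSS, RUNX matched 13 of 60 members (21.7%, beside 7.76% of all 21853 genes), the TATA box 13 (21.7%, beside 7.18%) and the GC box 9 (beside 35.8% of all genes). NF-kB matched 10 members (16.7%, beside 5.26%): Cxcl1, Cxcl2, Cxcl3, Cxcl5, Cxcl10, Ccl5, Ccl9, Ccl20, Ccr1 and Ackr2. Of those 10, none was open in both thresholded lists, beside 8.33% of all members and 41.3% of all genes, and Cxcl10 was in 1. Cxcl1, Cxcl2, Cxcl10 and Ccr1 had a promoter peak in both less strict lists, beside 28.3% of all members and 58.0% of all genes. In these windows ETS matched 17 members (28.3%, beside 14.2% of all genes), the E-box 14 (23.3%, beside 14.7%) and GATA 8 (13.3%, beside 4.75%). AP-1 matched 6 (10%, beside 3.46%) and PU.1 3 (5%, beside 1.63%). The CCAAT box (18.3%, beside 27.3%) and HIF (5%, beside 11.7%) were less frequent in members. CRE matched 1 member (1.67%, beside 1.76%) and CTCF 0 (beside 0.416%), both near the shares of all genes. Promoters of the members are poorer in CpG than those of all genes, and shares in genes of like CpG were not computed. Cxcr4 was the single member with an NRF1 match, found in 0.814% of all such windows. A match says that the letters are present and does not show a bound factor.

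The genes that act below chemokine receptors had a different count from the receptors themselves. Of 34 signalling genes, 24 (70.6%) were open in both thresholded lists, beside 41.3% of all genes. Among these 34 were G protein subunits, kinases, small GTPases, arrestins and regulators of G protein signalling. In both less strict lists 32 (94.1%) had a promoter peak, beside 58.0% of all genes. Shares in genes of like CpG were not computed for the signalling genes. Rgs18, which shortens G protein signals in blood cells, had the strongest promoter among them, with signals of 17.0 and 16.7. Rhoa had 12.3 and 12.7, Cdc42 12.0 and 12.0, Dock2, the Rac activator of leukocyte migration, 10.6 and 10.2, Gnai2, a G protein subunit used by chemokine receptors, 9.51 and 9.65, and Arrb2, an arrestin that ends their signal, 7.24 and 9.56. Each of these exceeded Cxcr4 in both replicates, as did nearly all open genes. Of the 9030 open genes, 27 had a lower promoter signal than Cxcr4 in replicate 1 and 60 in replicate 2. A further 6 of the signalling genes had a promoter peak in a single thresholded list, and Grk2 and Plcb3 had none in the less strict lists. Of 9 genes of related function outside the name rule, 3 (33.3%) were open, beside 41.3% of all genes. In both less strict lists 6 (66.7%) had a promoter peak, beside 58.0% of all genes. Mif, a cytokine that can bind Cxcr4 (16.8 and 14.7), and Pf4, the platelet chemokine also known as Cxcl4 (6.53 and 7.84), were open. So was Dpp4, a peptidase that cleaves Cxcl12 (6.92 and 6.41). Ppbp, the platelet chemokine next to Pf4, had no promoter peak.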

How the data were processed

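Chromatin accessibility was measured in 2 ATAC-seq libraries of 1 group. The deposited peak lists give, per peak, the authors' signal value and the −log10 of a q-value, in the mm10 build per the labels. The per-library lists derive from 1 library each, per the deposited file notes. Neither aligner and peak caller nor the scaling of the signal and the read depth is given in the sources used here, so the precision that depth gives is unknown. Lines of the same interval were counted once at the strongest summit, on assembled chromosomes. Genes were the protein-coding genes of GENCODE release M21, with the starts of their protein-coding transcripts. Promoters were 1 kb either side of a TSS, distal peaks lay within 50 kb, and peaks that overlapped by 1 bp or more counted as shared. No test was made, since 1 group gives no contrast and genes that share peaks are not replicates. Counts stand beside those over all genes instead. Python 3.11.15, pandas 2.3.3 and numpy 2.4.6 were used, and the overlap code was tested on simulated peaks. The members and gene lists were chosen with earlier results of these data known. The named genes were Cxcr4, every member with a promoter peak in any thresholded list or in both less strict lists, the members leading their locus in distal peaks, and Cxcl12, Cx3cr1, Ccr2, Ccr7, Ccr9, Ackr3 and Cxcl16. Genes named from the lists of signalling and related genes, and other members, were chosen after their values were seen. The alternatives were other lists, windows, start sites, overlap rules and single replicates. Results for some genes are not reported here.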

Additional observations from a re-analysis of the deposited data

How the results depend on the processing

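The 5 open members became 17 in the less strict lists, 11 in the series-level thresholded list, 12 in the series-level conservative list and 1 (Ccl25) with the strongest 50% of peaks. The 2 ligands became 10, 7, 8 and 1 under the same settings, and 1 with promoters of 500 bp, without peaks over promoters of other genes, with the summit inside the window, or with overlapping replicate peaks (this last one was chosen after seeing the data, as were the RefSeq starts and the starts of all transcripts). The 3 receptors became 7 in the less strict lists and 0 with the strongest 50% of peaks. With a single replicate the counts ran from 6 to 9 members, 3 to 6 ligands and 3 receptors with either replicate, and replicate 2 alone gave the higher values of members and ligands. The share over all genes exceeded that of the members in each of these settings. The 39 distal peaks became 152 in the less strict lists, 109 and 125 in the series-level thresholded and conservative lists, 20 with the strongest 50% of peaks, 19 within 20 kb, 24 where a member had the nearest TSS, and 58 to 63 with a single replicate. The 39 members with a distal peak became 18 within 20 kb, 19 where that member had the nearest TSS, and 41 to 45 with a single replicate. The nearest-TSS and single-replicate counts stand without the share of all genes, so they do not show whether the difference from all genes remained. Cxcr4, Ackr3, Cxcr3 and Ccl25 kept their call in all alternatives but 1 each, and Ccl4 lost its call in 6. No paired analysis was possible because there is 1 group. Depth is unknown, so an absent peak is one that was not detected in these lists.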
